A study of Mus musculus with 15 samples.

Results

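The genes described here are *Kat5*, *Epc1*, *Epc2*, *Trrap*, *Ep400*, *Ing3*, *Morf4l1*, *Actl6a* and *Chd5*, chosen by symbol for their part in the histone acetylation and eviction of spermiogenesis. They are 9 of the 32285 genes in the gene table of the series, and each symbol matched 1 row. scRNA-seq was measured in testes of adult DBA/2J males in 15 libraries, each from 1 mouse, 3 mice in each of 5 groups. The T group received the BET bromodomain inhibitor JQ1 at 50 mg/kg by daily intraperitoneal injection for 3 wk, and its testes were taken at once, at 10 wk of age. The VC-T group received the vehicle on that schedule and was taken at the same age. The R group received the same JQ1 course and was taken 6 wk after the last dose, at 16 wk of age, as were the vehicle mice of the VC-R group. Untreated mice (UC) were taken at 15 wk, so age differs between UC and both JQ1 groups and cannot be told apart from treatment. JQ1 was given to the whole animal and binds all BET proteins, in somatic cells as in germ cells. The study set VC-T 1 aside from its expression tests, and VC-T 1 is likewise kept out of the control profile given here.

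The NuA4 complex, called TIP60 complex in mammals, acetylates histones H4 and H2A. KAT5 is its catalytic acetyltransferase, EPC1 and EPC2 are the enhancer-of-polycomb scaffolds that hold the catalytic module together, TRRAP is a large scaffold that activators contact and that is shared with the SAGA acetyltransferase, EP400 is an ATPase of the SWI2/SNF2 type that exchanges histones, ING3 reads methylated H3 through a PHD finger, MORF4L1 carries a chromodomain, and ACTL6A is an actin-related protein that also belongs to the BAF and INO80 remodellers. CHD5 is not a NuA4 subunit. It is a chromodomain helicase of the NuRD type, known in mouse spermatids for its part in removing histones. In elongating spermatids H4 becomes hyperacetylated, BRDT binds the acetylated tails through its bromodomains, and transition proteins and then protamines take the place of histones. JQ1 occupies the acetyl-lysine pocket of the BET bromodomains, the family to which BRDT belongs.

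The promoters of *Chd5*, *Ing3* and *Morf4l1* are shown because these genes changed in spermatid-like cells and their windows hold a motif known from germ cell promoters. Each is the 250 bases before the start of the gene in RefSeq (GRCm38.p6), written 5′ to 3′ on the strand of the gene, with motif matches in capitals. The motifs were chosen after the sequences had been read. They are the cAMP response element TGACGTCA bound by CREM in spermatids, its core TGACG, and the X-box bound by RFX factors, spelled GTTGCC and GCAAC with NNN between them, each searched on both strands, and every TGACGTCA match also holds TGACG.

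Chd5, chr4:152338401-152338650, plus strand: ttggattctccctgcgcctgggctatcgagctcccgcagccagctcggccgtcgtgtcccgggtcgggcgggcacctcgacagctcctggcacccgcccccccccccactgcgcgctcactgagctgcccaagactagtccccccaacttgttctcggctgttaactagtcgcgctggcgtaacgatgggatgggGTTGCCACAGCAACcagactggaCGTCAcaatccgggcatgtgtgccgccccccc

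Ing3, chr6:21949321-21949570, plus strand: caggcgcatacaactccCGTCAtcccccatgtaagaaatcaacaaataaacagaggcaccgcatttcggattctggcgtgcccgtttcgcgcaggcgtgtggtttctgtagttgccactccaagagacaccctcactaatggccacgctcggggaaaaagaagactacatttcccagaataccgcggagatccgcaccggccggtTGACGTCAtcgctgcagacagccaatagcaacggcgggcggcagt

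Morf4l1, chr9:90114821-90115070, minus strand: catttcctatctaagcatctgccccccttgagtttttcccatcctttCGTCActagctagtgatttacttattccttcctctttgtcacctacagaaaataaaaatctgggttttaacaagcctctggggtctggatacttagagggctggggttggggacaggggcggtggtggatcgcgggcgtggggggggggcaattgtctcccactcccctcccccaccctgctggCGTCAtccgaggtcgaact

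The *Chd5* window held the X-box, starting 55 bases before the gene, and a TGACG core, starting 32 bases before it. Of 32851 windows of this length, 0.119% held that X-box, and *Chd5* was the 1 gene with it among the 8 described genes that had a window. The *Ing3* window held a full TGACGTCA, starting 45 bases before the gene, which 1.55% of windows held and no other of the 8. It also held a separate TGACG core on the other strand, 233 bases before the gene. *Morf4l1* held TGACG at 203 and at 19 bases before its start. That core was in the windows of *Chd5*, *Ing3*, *Kat5* and *Morf4l1* and in 17.8% of all windows. No annotated exon lies in the 3 windows shown, and a match describes the letters only. Since the motifs were chosen after the sequences had been read, the shares do not measure how unusual these matches are.

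On GRCm38 (GENCODE vM21), *Kat5* spans chr19:5603014-5610237, *Epc1* chr18:6435951-6516108, *Epc2* chr2:49451486-49551948, *Trrap* chr5:144767732-144859778, *Ep400* chr5:110664373-110770717, *Ing3* chr6:21949571-21976038, *Morf4l1* chr9:90091665-90114774, *Actl6a* chr3:32706298-32726973 and *Chd5* chr4:152338651-152390194. Whether strand was used in counting is not given in the sources used here. Without it, UMIs of *Kat5* cannot be told apart from those of *Rnaseh2c* where both genes overlap, nor those of *Actl6a* from *Mrpl47*, both on the opposite strand. *Chd5* and *Morf4l1* each overlap 1 noncoding gene on the other strand, *Actl6a* also overlaps *Gm37353*, *Epc1*, *Ep400* and *Trrap* overlap small RNA genes or an antisense transcript, and *Epc2* and *Ing3* overlap no gene.

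The libraries held 3407 to 14221 barcodes and 9673587 to 98724982 UMIs each, and 72362 of 101610 barcodes were kept as cells. Clusters were named from marker genes, and all 15 libraries held spermatogonia-like, spermatocyte-like and spermatid-like cells. Spermatozoa-like cells numbered 1, 1 and 3 in the T libraries and at least 950 in each UC, R and VC-R library and in VC-T 2 and VC-T 3, and VC-T 1 had none. Libraries shared at most 0.554% of the barcodes of the smaller one. Unless given as normalised, levels are CPM, the UMIs of a gene scaled to the total UMIs of a class in a library. They are shares of the RNA of that class, so that a change in a gene and an opposite change in the rest of the RNA cannot be told apart.

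In the 8 control libraries (UC, VC-R and VC-T 2 and 3), the 8 NuA4 genes had, of the 4 germ cell classes, their lowest mean in spermatozoa-like cells, whereas *Chd5* had its high levels in spermatid-like and spermatozoa-like cells. *Kat5*, the catalytic subunit, was at 27.6 ± 17.3 CPM in spermatogonia-like cells, 74.6 ± 5.45 in spermatocyte-like cells, 11.4 ± 4.73 in spermatid-like cells and 3.71 ± 1.01 in spermatozoa-like cells (mean ± SD, n = 8). Spermatocyte-like cells were the highest of these 4 classes in all 8 libraries. In spermatogonia-like cells of UC 1, *Kat5* had 0 UMIs, which allows up to 28.8 CPM.

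*Epc1* held about the same level in spermatogonia-like and spermatocyte-like cells, at 64.6 ± 9.52 and 69.7 ± 5.60 CPM, and 3 of 8 libraries had the higher value in spermatogonia-like cells. It then stood at 40.0 ± 5.44 CPM in spermatid-like and 11.0 ± 1.23 CPM in spermatozoa-like cells, each step lower in 8 of 8 libraries. *Epc2*, its paralog, was at 38.0 ± 13.7, 21.8 ± 2.76, 16.8 ± 4.64 and 1.46 ± 0.612 CPM in the same 4 classes. Its highest level was in an unnamed cluster between spermatogonia-like and spermatocyte-like cells, led by *Prss50*, *Dazl* and *Rad51ap2*, at 75.0 ± 23.4 CPM, above the spermatogonia-like and the spermatocyte-like level in 8 of 8 libraries.

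*Trrap* fell at every step, from 65.6 ± 18.4 CPM in spermatogonia-like cells to 22.8 ± 3.26 in spermatocyte-like cells and 1.02 ± 0.650 in spermatid-like cells, in 8 of 8 libraries each. In spermatozoa-like cells it was at 0.470 ± 0.288 CPM, on 24 UMIs in all, below the spermatid-like value in 7 of 8 libraries. *Ep400* was highest in spermatocyte-like cells at 294 ± 31.6 CPM, against 195 ± 30.03 in spermatogonia-like, 70.5 ± 17.2 in spermatid-like and 10.8 ± 2.16 in spermatozoa-like cells, the same order in all 8 libraries. The catalytic subunit and the ATPase shared their highest class among them, and of these 4 germ cell classes *Trrap* was highest in spermatogonia-like cells.

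*Ing3* had a dip in meiosis, with 39.7 ± 10.4 CPM in spermatogonia-like cells, 13.1 ± 2.27 in spermatocyte-like cells and 35.4 ± 3.51 in spermatid-like cells. The rise from spermatocyte-like to spermatid-like cells was seen in 8 of 8 libraries, while spermatogonia-like and spermatid-like cells were not ordered beyond the spread (6 of 8). *Ing3* then stood at 1.88 ± 0.896 CPM in spermatozoa-like cells. *Morf4l1* was at 662 ± 159 CPM in spermatogonia-like, 2341 ± 221 in spermatocyte-like, 1795 ± 259 in spermatid-like and 456 ± 66.3 in spermatozoa-like cells, the same order in all 8 libraries. *Actl6a* stood at 123 ± 13.4, 122 ± 9.38 and 96.6 ± 10.3 CPM in the first 3 classes and at 7.68 ± 2.42 CPM in spermatozoa-like cells. Its spermatogonia-like and spermatocyte-like levels were not ordered, with the former higher in 2 of 8 libraries.

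*Chd5*, the chromatin remodeller outside NuA4, was at 36.1 ± 8.75 CPM in spermatogonia-like cells and 10.7 ± 4.07 in spermatocyte-like cells. It reached 307 ± 42.7 CPM in spermatid-like and 289 ± 31.0 CPM in spermatozoa-like cells, above both earlier classes in 8 of 8 libraries. The spermatid-like value was the higher of the last pair in 7 of 8. Free RNA was not removed, and the summed spermatozoa markers of UC were at 1111 to 2083 CPM in spermatogonia-like cells. They were at 533 to 2655 CPM in spermatocyte-like and 18126 to 20092 CPM in spermatozoa-like cells. How much of the *Chd5* level in both earlier classes is free RNA was not tested.

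**Figure D1:**
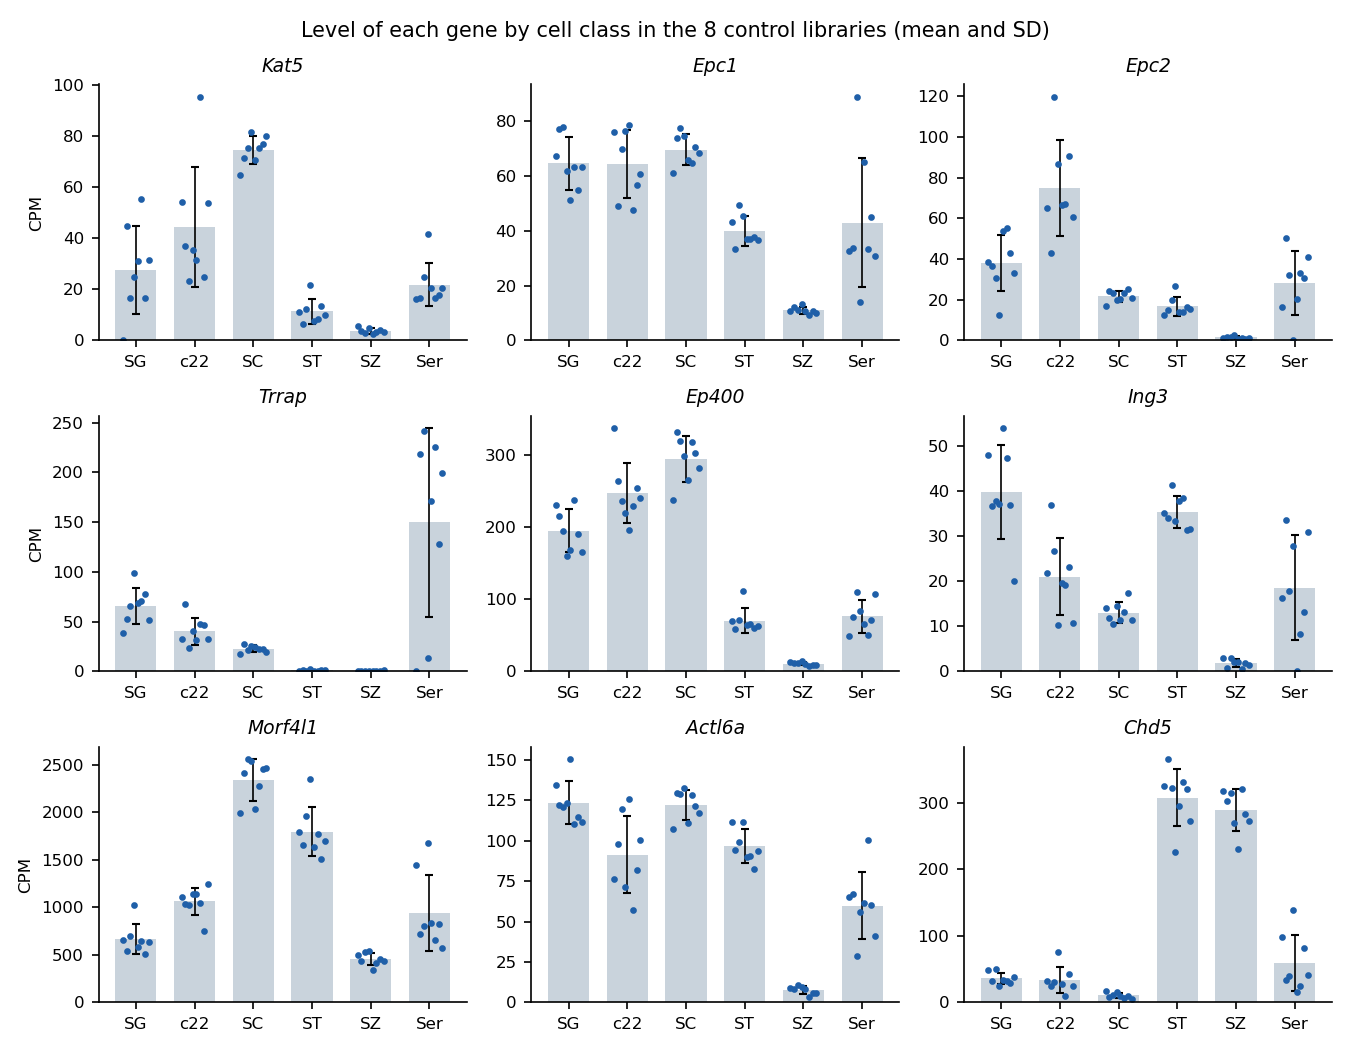
Level (CPM, linear axes from 0) of each gene in spermatogonia-like (SG), unnamed cluster c22, spermatocyte-like (SC), spermatid-like (ST), spermatozoa-like (SZ) and Sertoli-like (Ser) cells of the 8 control libraries, with bars for the mean, lines for the SD and a point per library. Kat5 and Ep400 were highest in spermatocyte-like cells, Chd5 in spermatid-like and spermatozoa-like cells.

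Germ cells were also ordered along pseudotime, an inferred course of differentiation built without these genes, and cut into 20 bins of equal cell number. In the controls *Trrap* and *Epc2* had their maximum in bin 1, the spermatogonial end, at 51.8 and 57.6 CPM. *Ep400* followed in bin 2 (354 CPM), *Kat5* in bin 4 (90.8 CPM), *Epc1*, *Morf4l1* and *Actl6a* in bin 5 (78.9, 2801 and 158 CPM), and *Ing3* in bin 8 (47.1 CPM). *Chd5* had its maximum in bin 11 (407 CPM), where 85.4% of cells were spermatid-like. By bin 16, where 88.8% of cells were spermatozoa-like, the mean of *Chd5* was 273 CPM, that of *Morf4l1* 423 CPM and that of *Ing3* 2.69 CPM.

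**Figure D2:**
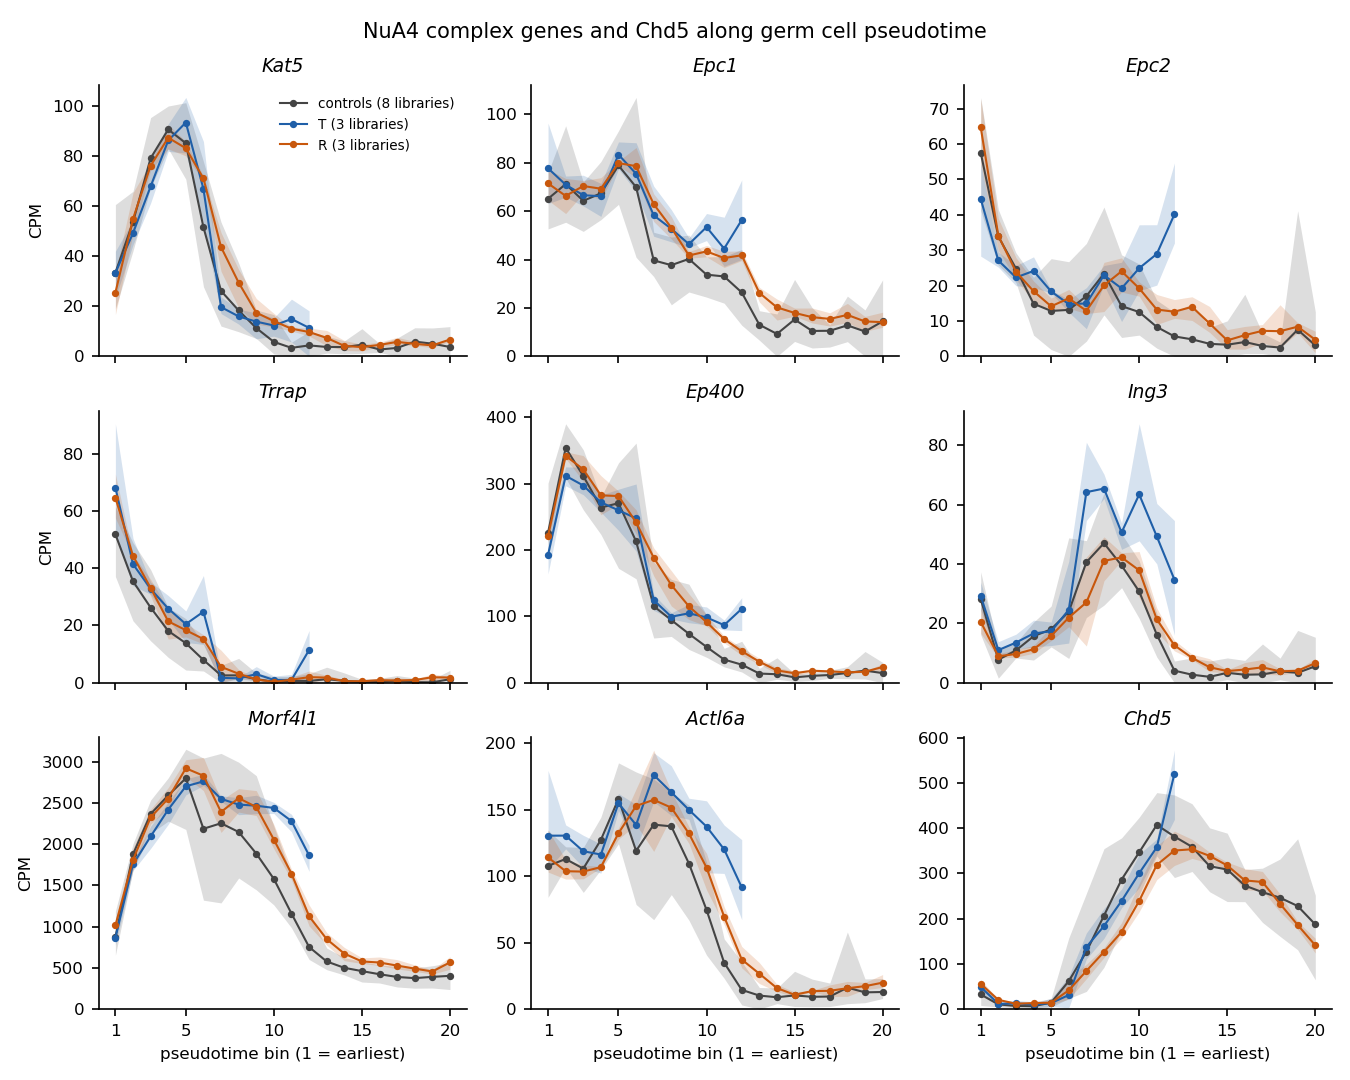
Mean CPM per pseudotime bin (1 to 20, earliest to latest) for the 8 control libraries, T and R, with shading from the lowest to the highest library, on linear axes from 0. Bins of T end at 12, since later bins held enough cells in at most 1 T library. In bin 11 T stood above the 8 controls, which leave out VC-T 1, for Morf4l1, Actl6a, Ep400, Ing3 and Epc2. For Kat5 the margin there was within counting error.

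Across the 20 bins, profiles of *Epc1* and *Ep400* had the highest likeness among the 9 genes (Pearson r = 0.962), and *Chd5* ran opposite to the other genes, from r = -0.919 with *Trrap* to r = -0.289 with *Ing3*. Over all 5820 genes with a mean of at least 20 CPM, the profiles most like that of each gene were *Ino80e* and *Rrp7a* for *Kat5*, *Trip12* and *Stag3* for *Epc1*, *Casc4* and *Pitpna* for *Epc2*, *Nae1* and *Tnpo3* for *Trrap*, *Bcl2l1* and *Ift20* for *Ep400*, *Creld2* and *2410004B18Rik* for *Ing3*, *Cds1* and *Mt1* for *Morf4l1*, *Sod2* and *Klhdc2* for *Actl6a*, and *4930478E11Rik* and *Asb9* for *Chd5*. These r ran from 0.970 (*2410004B18Rik* with *Ing3*) to 0.997 (*4930478E11Rik* with *Chd5*). The bins come from the same cells and libraries for every gene, so neighbouring bins are not independent and the values only describe likeness.

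T was compared with UC to see which genes had changed at the end of dosing, and R with UC to see which differed 6 wk later. Both use the 3 UC libraries. At the thresholds of the study (adjusted p under 0.05 and a change of over 1 on the log2 scale in edgeR's quasi-likelihood test) 0 of the tested genes of this set was called in any of the 7 comparisons, nor with DESeq2. In some comparisons DESeq2 gave no adjusted p for part of the set. The share of all tested genes called at both thresholds was 4.15% in spermatogonia-like, 0.588% in spermatocyte-like and 16% in spermatid-like cells for T, while for R it was 0.406% in spermatogonia-like, 0% in spermatocyte-like, 6.66% in spermatid-like and 0.9% in spermatozoa-like cells. The calls below rest on the adjusted p alone, whatever the size of the change. Levels of the described genes given with these comparisons are TMM-normalised CPM, scaled between libraries. They are not on the scale of the plain CPM used for classes, pseudotime bins, summed markers and Sertoli-like cells.

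In spermatid-like cells of T, 4 NuA4 genes were higher than in UC (*Ep400*, *Ing3*, *Actl6a* and *Morf4l1*) and *Chd5* was lower. *Trrap* was too low to be tested, and *Kat5*, *Epc1* and *Epc2* did not pass. That is 5 of 8 tested genes, beside 48.1% of all 13137 genes tested (21.8% higher and 26.2% lower). The median log2 fold change of the 8 was 0.29, against 0.05 over all tested genes.

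*Chd5* showed the largest change. It stood at 211, 212 and 232 normalised CPM in the T libraries and at 340.1, 350.04 and 409 in the UC libraries, so that every T library was below every UC library. The means were 218 ± 12.0 and 366 ± 37.2 CPM (SD, n = 3), from 4408 and 4134 UMIs. The log2 fold change was -0.75 (SE 0.08, adjusted p = 2.86e-06), a level 1.68-fold lower in T.

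*Ep400*, the ATPase, was at 93.4, 95.8 and 98.2 CPM in T and at 65.5, 74.5 and 75.6 CPM in UC, with no overlap. Its log2 fold change was 0.40 (SE 0.09, adjusted p = 0.002). *Ing3*, the PHD finger subunit, was at 52.8, 54.3 and 54.9 CPM in T and 38.0, 38.03 and 43.5 CPM in UC. The T libraries again lay above all UC libraries, with a log2 fold change of 0.42 (SE 0.11, adjusted p = 0.00521).

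*Actl6a* was at 130.1, 139.6 and 148 CPM in T and 104, 105 and 120.02 CPM in UC, a log2 fold change of 0.34 (SE 0.09, adjusted p = 0.00652). *Morf4l1*, the chromodomain subunit, was at 2107, 2267 and 2401 CPM in T and 1852, 1935 and 2060.4 CPM in UC. Both genes were higher in every T library than in every UC library. The *Morf4l1* change was the smallest that passed, 0.20 on the log2 scale (SE 0.06, adjusted p = 0.0147), and it did not pass without UC 1 (adjusted p = 0.0528) or UC 2 (0.0816) or in DESeq2 (0.0539). *Actl6a* did not pass without UC 3 (adjusted p = 0.055).

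*Kat5* itself stood at 12.9, 15.8 and 16.6 CPM in T and 7.02, 11.8 and 13.0 CPM in UC, with an overlap between the groups, and its log2 fold change of 0.50 (SE 0.20) had an adjusted p of 0.0536. It passed without T 3 (0.57, adjusted p = 0.0459) or UC 3 (0.68, adjusted p = 0.0272). The scaffolds overlapped between groups, *Epc1* with 45.1 to 48.6 CPM in T and 37.4 to 52.0 in UC (log2 fold change 0.05, SE 0.12) and *Epc2* with 18.2 to 23.6 in T and 13.3 to 20.7 in UC (0.24, SE 0.18). *Trrap* had 38 UMIs over the 3 T libraries and 10 over the 3 UC libraries, at 1.92 and 0.832 CPM.

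T and UC spermatid-like cells did not stand at the same place along pseudotime. The median rank (0 to 1) was 0.399 in T and 0.428 in UC, the summed spermatozoa markers were at 2891 to 3102 CPM in T and 4945 to 5828 in UC, and the summed spermatocyte markers at 767 to 838 and 404 to 483 CPM, with no marker of either list at 0. Of the spermatid-like cells, a cluster led by *Gm37294*, *Cd59b* and *Hemgn* held 24.1% in UC and 2.05% in T, and a cluster led by *Gm5458*, *Gm6588* and *Ssxb2* held 20.1% in UC and 39.5% in T. The 8 Sertoli markers summed to 6.12 to 18.0 CPM in T and 31.7 to 49.4 CPM in UC, the median UMI count per cell was 2245 to 3154 in T libraries and 4012.5 to 5392 in UC libraries, and their part in the calls was not tested beyond the settings given here. Without the clusters with a median under 2000 UMIs, the same 5 genes passed in the same direction, *Chd5* at -0.79, *Ep400* at 0.40, *Ing3* at 0.38, *Actl6a* at 0.30 and *Morf4l1* at 0.18, beside 50.8% of 12863 genes. With all groups in 1 fit, *Chd5* (-0.76, adjusted p = 0.00589) and *Ing3* (0.42, adjusted p = 0.04) passed, and *Ep400* (0.40, adjusted p = 0.11), *Actl6a* (0.33, adjusted p = 0.102) and *Morf4l1* (0.20, adjusted p = 0.287) did not. With the same number of cells taken from every library in each pseudotime interval (476 per library), *Chd5* (-0.67, SE 0.08, adjusted p = 4.26e-06), *Ep400* (0.45, SE 0.11, adjusted p = 0.00249) and *Morf4l1* (0.17, SE 0.06, adjusted p = 0.0413) passed, and *Ing3* (0.34, SE 0.14, adjusted p = 0.0605) and *Actl6a* (0.27, SE 0.13, adjusted p = 0.102) did not. Against VC-T 2 and VC-T 3 in place of UC, all 5 genes passed in the same direction, *Chd5* at -0.59, *Ep400* at 0.50, *Ing3* at 0.63, *Actl6a* at 0.52 and *Morf4l1* at 0.34. No share of all genes is given for this fit, the fit with matched cells or the fit of all groups. The calls of these fits are not read against other genes. Of the 1598 spermatid-like cells of VC-T 2, 1178 lay in the clusters with a median under 2000 UMIs, against 2.45% in VC-T 1 and 7.86% in VC-T 3. With those clusters left out, the 5 genes again passed against VC-T 2 and VC-T 3, at -0.71, 0.41, 0.45, 0.41 and 0.21 in the same order, and so did *Epc2* (0.60, SE 0.23, adjusted p = 0.0432), beside 7114 of 14218 genes. The settings without those clusters were added after the data had been seen. With VC-T 1 added to those controls none passed, and the log2 fold changes were -0.47, 0.25, 0.46, 0.30 and 0.14. With those 3 controls 0 of all 13950 genes tested in edgeR had an adjusted p under 0.05, and 3702 had an unadjusted p under 0.05.

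Along pseudotime, T and control libraries were compared in 2 bins. In bin 11, *Morf4l1* was at 2152 to 2364 CPM in T and 986 to 1630.5 CPM in the 8 controls. *Actl6a* was at 102 to 139 CPM in T and 23.2 to 52.9 in controls, *Ep400* at 79.6 to 94.4 and 23.9 to 51.8, and *Ing3* at 40.1 to 60.4 and 8.66 to 23.4. Every T library was above every control library there for these 4 genes and for *Epc2* (20.1 to 37.2 and 2.31 to 15.9 CPM). *Kat5* (5.76 to 22.9 and 0 to 5.66 CPM) also lay above, but by a margin within counting error. A count of 3 was 4.42 CPM in T 2 and 8.58 CPM in T 3 in that bin. The 0 was VC-T 3, where a count of 0 allows up to 2.31 CPM. With *Kat5* counted, 6 of the 8 genes with a mean of at least 5 CPM in that bin lay above. That stands beside 36.9% of all 9879 such genes. Below every control lay 0 of the 8, beside 15.9%. With VC-T 1 among the controls 0 of 8 lay above, beside 12.4% of 9958 genes. *Chd5* was at 342 to 376 CPM in T there, within the control range of 338 to 478 CPM. In bin 8, which 93.4% spermatid-like cells made up, *Ep400* was at 96.0 to 105 CPM in T and 69.7 to 156 CPM in controls, and *Morf4l1* at 2359 to 2566 and 1591 to 2996 CPM, with T inside the range of the controls. *Actl6a* (146 to 183 CPM in T, 86.2 to 163 in controls) and *Ing3* (62.1 to 70.3 CPM in T, 26.2 to 63.9 in controls) reached above that range there.

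**Figure D3:**
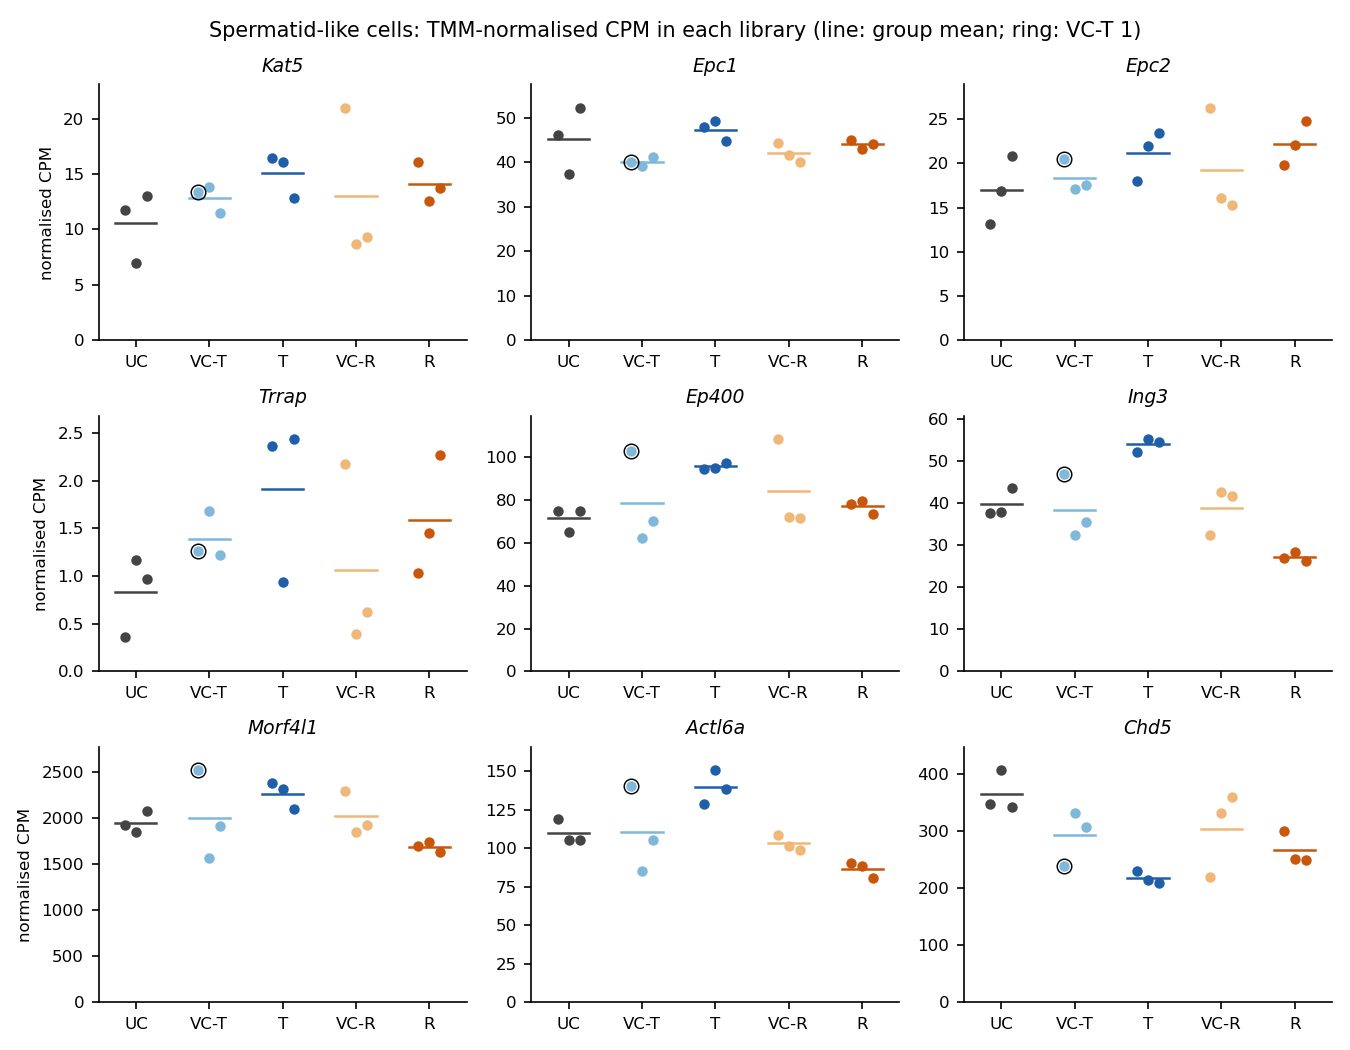
TMM-normalised CPM of each gene in spermatid-like cells, 1 point per library in UC, VC-T, T, VC-R and R, with the mean of each group as a line and a ring around VC-T 1, on linear axes from 0. T stands above UC for Ep400, Ing3, Actl6a and Morf4l1 and below it for Chd5.

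In R, 6 wk after the last dose, spermatid-like cells had lower *Ing3*, *Chd5*, *Actl6a* and *Morf4l1* and higher *Epc2* than UC. These calls include cells of 4 clusters of few UMIs per cell, and without those clusters the 2 genes that passed were *Chd5*, lower, and *Ep400*, higher, beside 17.5% of all genes tested. With all clusters, the 5 of 8 tested genes stand beside 41.2% of all 14899 genes tested (21.3% higher and 19.9% lower). Over the 8, log2 fold changes had a median of -0.11, against 0.05 over all genes. *Ing3* was at 26.5, 27.4 and 28.6 CPM in R and 37.9, 38.0 and 43.5 CPM in UC, a log2 fold change of -0.55 (SE 0.11, adjusted p = 0.000326). *Chd5* was at 253, 253.1 and 306 CPM in R and 339.8, 349.7 and 409 CPM in UC, a log2 fold change of -0.44 (SE 0.09, adjusted p = 0.000487). For both genes the R libraries lay below all UC libraries.

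*Actl6a* was at 81.2, 89.0 and 92.3 CPM in R and 104, 105 and 119.9 CPM in UC (log2 fold change -0.32, SE 0.09, adjusted p = 0.0062). *Morf4l1* was at 1639.9, 1726 and 1756 CPM in R and 1849.8, 1933 and 2058 CPM in UC (-0.19, SE 0.07, adjusted p = 0.0405). *Epc2* was at 20.1, 22.3 and 25.0 CPM in R and 13.2, 16.9 and 20.7 CPM in UC, so that the groups overlapped, with a log2 fold change of 0.38 (SE 0.15, adjusted p = 0.0398). *Kat5* (0.40, SE 0.18, adjusted p = 0.0828), *Ep400* (0.12, SE 0.09, adjusted p = 0.313) and *Epc1* (-0.04, SE 0.11, adjusted p = 0.823) did not pass, and *Trrap* had 80 UMIs in R and 10 in UC, at 1.60 and 0.831 CPM.

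Of these 5 calls, those of *Ing3* and *Chd5* held without each library in turn. With all groups in 1 fit *Ing3* passed (-0.55, adjusted p = 0.0267), and *Chd5* (-0.45, adjusted p = 0.0892), *Actl6a* (adjusted p = 0.129), *Epc2* (0.244) and *Morf4l1* (0.334) did not. *Chd5* did not pass with the coarser clustering either (-0.33, adjusted p = 0.0641). *Actl6a* did not pass without R 3 (adjusted p = 0.0657) or UC 1 (0.0511), *Morf4l1* without R 1 (0.121), R 3 (0.151), UC 1 (0.092) or UC 3 (0.0964), and *Epc2* without R 2 (0.0639), R 3 (0.198), UC 1 (0.228) or UC 2 (0.0703). *Kat5* passed without UC 3 (0.62, adjusted p = 0.0262), and was at 0.18 without UC 2 (adjusted p = 0.448) and 0.084 with the coarser clustering (adjusted p = 0.81).

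The spermatid-like cells of R came largely from other clusters than those of UC. Between them, 4 clusters with median UMI counts of 1262.5 to 1673 per cell held 77.0% of the spermatid-like cells of R, against 15.7% in UC, 6.24% in T, 24.6% in VC-T and 12.1% in VC-R, and 3 of the 4 were led by genes that include *Fgf14*, *Cntn6*, *Pcdh9*, *Lrp1b* and *Lsamp*. The other was led by genes that include the mitochondrial *mt-Nd2* and *mt-Cytb* and *AY036118*, had a median of 1262.5 UMIs per cell, and held 15.6% of the spermatid-like cells of R, 2.54% in UC and 0.712% in T. The median UMI count of spermatid-like cells was 1483 to 1987 in R libraries and 4012.5 to 5392 in UC libraries, the median pseudotime rank was 0.567 in R and 0.428 in UC, and the 8 Sertoli markers summed to 78.2 to 97.8 CPM in R, none of them at 0, and to 31.7 to 49.4 CPM in UC, with 1 or 2 at 0. The summed spermatid markers were at 2430 to 2551 CPM in R and 2868 to 3253 CPM in UC. The spermatocyte markers were at 560 to 629 CPM in R and 404 to 483 CPM in UC. The part of these markers in the calls was not tested. Whether the cells of these 4 clusters are intact spermatids was not tested. With the 4 clusters left out, 530 to 750 spermatid-like cells remained per R library and 509 to 793 per UC library. *Chd5* (-0.54, SE 0.09, adjusted p = 0.00039) and *Ep400* (0.37, SE 0.09, adjusted p = 0.00625) then passed, whereas *Ing3* (-0.28, SE 0.11, adjusted p = 0.0724), *Epc2* (0.20, SE 0.15, adjusted p = 0.376), *Actl6a* (-0.045, SE 0.08, adjusted p = 0.753) and *Morf4l1* (0.098, SE 0.06, adjusted p = 0.256) did not, beside 2364 of all 13516 genes. Against VC-R without these clusters, none of the 8 tested genes passed in edgeR, with *Ing3* at -0.21 (SE 0.13, adjusted p = 0.991) and *Chd5* at -0.27 (SE 0.19, adjusted p = 0.991), and 0 of all 13668 genes had an adjusted p and 297 an unadjusted p under 0.05. Both settings were added after the data had been seen.

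With cells matched on pseudotime (472 per library), *Chd5* was again lower in R (-0.86, SE 0.07) while *Actl6a* and *Morf4l1* turned to higher, at 0.34 (SE 0.09, adjusted p = 0.0047) and 0.24 (SE 0.05, adjusted p = 0.000577). *Ep400* (0.55, SE 0.10, adjusted p = 6.53e-05) and *Kat5* (0.84, SE 0.24, adjusted p = 0.00635) passed as higher, and *Ing3* was at -0.02 (SE 0.12, adjusted p = 0.897). With cells under 2000 UMIs left out, *Ing3* (-0.43, SE 0.13, adjusted p = 0.0162) and *Chd5* (-0.43, SE 0.10, adjusted p = 0.00391) were the genes that passed. For this fit and the matched one no share of all genes is given, and their calls are not read against other genes. Against VC-R none passed, with *Ing3* nearest at -0.54 (SE 0.14, adjusted p = 0.0578) and *Chd5* at -0.21 (SE 0.18, adjusted p = 0.449). With these controls 642 of 14997 genes had an adjusted p under 0.05, against 41.2% of genes with UC.

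VC-R 1 stood apart from the other VC-R libraries in these genes. Its spermatid-like level was 220 CPM for *Chd5*, against 333 CPM in VC-R 2 and 360.5 CPM in VC-R 3, and 109 CPM for *Ep400*, against 72.3 and 71.7 CPM. VC-T 1 stood apart in the same way, with 239 CPM for *Chd5* against 333 CPM in VC-T 2 and 307 CPM in VC-T 3, and 103 CPM for *Ep400* against 62.5 and 70.1 CPM.

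**Figure D4:**
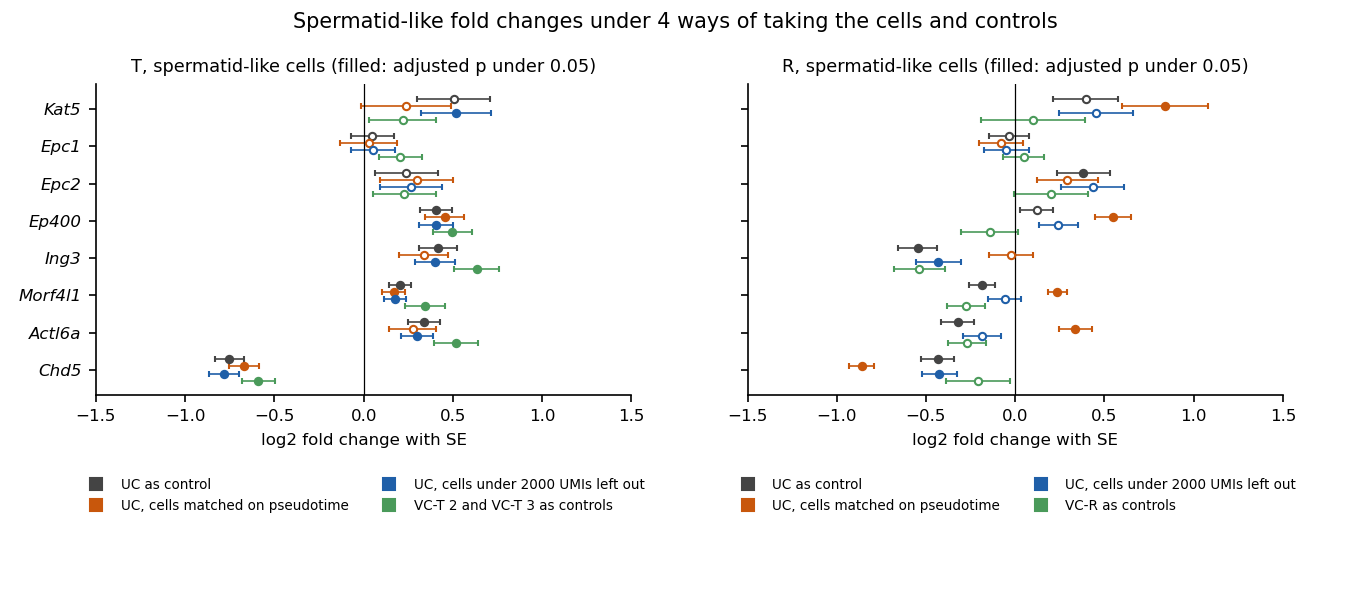
Log2 fold change with SE in spermatid-like cells of T (left) and R (right) for the 8 tested genes against UC, against UC with cells matched on pseudotime, against UC without cells under 2000 UMIs, and against vehicle controls (VC-T 2 and VC-T 3, or VC-R), filled where the adjusted p is under 0.05. Chd5 lies below 0 in every case, whereas Actl6a and Morf4l1 change side in R when cells are matched.

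Spermatozoa-like cells could be compared for R only. *Chd5* was lower in R, at 227, 242 and 262 CPM against 310.01, 316 and 317 CPM in UC, with no overlap. Its log2 fold change was -0.39 (SE 0.07, adjusted p = 0.000147), from 15066 and 5691 UMIs. The summed Sertoli markers in these cells were at 64.3 to 72.9 CPM in R and 30.5 to 35.1 CPM in UC, the median UMI count per cell was 4070.5 to 6096 in R libraries and 2505 to 2871 in UC libraries, and their part in the result was not tested. It was the 1 of 8 tested genes to pass, beside 7.79% of all 12332 genes tested (2.72% lower). The other 7 had log2 fold changes from 0.10 to 0.42, of which *Ep400* at 0.29 (SE 0.13, adjusted p = 0.172) and *Ing3* at 0.42 (SE 0.29, adjusted p = 0.424) were the furthest from 0. The *Ing3* value, on 209 UMIs in R and 43 in UC, was 0.075 without UC 2, 0.13 without R 3, 0.72 without UC 3 and -0.024 with cells matched on pseudotime. The *Chd5* change did not pass with cells matched on pseudotime (-0.15, SE 0.10, adjusted p = 0.476) or against VC-R (-0.30, SE 0.11, adjusted p = 0.225), where in edgeR 0 of 12227 genes had an adjusted p under 0.05 and 1893 an unadjusted p under 0.05. The median pseudotime rank of spermatozoa-like cells was 0.878 in R and 0.750 in UC, and 13.0% of them in R and 0.548% in UC were of a cluster led by *Azin2*, *Smcp* and *Tssk6*.

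Before the spermatid stage no gene of the set passed. By edgeR at an unadjusted p under 0.05 there was 1 gene in spermatogonia-like cells of T (*Morf4l1*), 1 in those of R (*Ing3*) and 0 in spermatocyte-like cells of either group, and by DESeq2 at an adjusted p under 0.05 there were 0 in all 4 comparisons. DESeq2 gave no adjusted p for some genes, among them *Kat5* in spermatogonia-like cells of T and *Epc2* and *Ing3* in those of R. The same holds for *Kat5*, *Epc1*, *Epc2*, *Trrap*, *Ing3* and *Chd5* in spermatocyte-like cells of R. In spermatogonia-like cells of T, 0 of 9 passed beside 5.54% of 7345 genes tested. *Morf4l1* came nearest, with 773, 807 and 1130.4 CPM in T and 535, 594 and 731 CPM in UC. Its T libraries lay above all UC libraries, and the log2 fold change was 0.51 (SE 0.16, adjusted p = 0.0668). It passed without T 2 (0.61, adjusted p = 0.013) or UC 3 (0.62, adjusted p = 0.0471), with doublets kept (0.59, adjusted p = 0.00125), without cells under 2000 UMIs (0.91, adjusted p = 0.00291), with no filter (0.54, adjusted p = 0.0198), with the replicate block (0.47, adjusted p = 0.0212) and without TMM scaling (0.51, adjusted p = 0.0359). It was at 0.31 without T 1 (adjusted p = 0.331), 0.36 without UC 2 (adjusted p = 0.365) and 0.21 against VC-T 1 to 3 (adjusted p = 0.907). In spermatogonia-like cells the summed spermatocyte markers were at 1247 to 1446 CPM in T and 1046 to 1171 CPM in UC. The spermatid markers summed to 210 to 516 CPM in T and 106 to 173 CPM in UC. Control *Morf4l1* levels were higher in both of those classes than in spermatogonia-like cells. The spermatozoa markers went the other way, at 266 to 606 CPM in T and 1111 to 2083 CPM in UC. The part of these markers in the *Morf4l1* value was not tested. The other genes of the set ranged from -0.42 (*Ing3*, SE 0.36) to 0.53 (*Kat5*, SE 0.51), on 18 to 292 UMIs per gene and group. The *Kat5* value was 1.32 without UC 2, 0.22 without UC 1 and 0.18 without UC 3.

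In spermatocyte-like cells of T, 0 of 9 passed beside 1.59% of 12081 genes. *Morf4l1* was at 2064, 2192 and 2327 CPM in T and 2147, 2454 and 2644 CPM in UC (log2 fold change -0.17, SE 0.08, adjusted p = 0.285), and *Ep400* was at 261, 275 and 283 CPM in T and 256, 329.6 and 338 CPM in UC (-0.20, SE 0.10, adjusted p = 0.285). *Ep400* passed without UC 1 (-0.31, adjusted p = 0.0269), *Morf4l1* with cells matched on pseudotime (-0.26, adjusted p = 0.00639), and both with the coarser clustering (-0.28, SE 0.06, adjusted p = 0.00943 for *Ep400* and -0.23, SE 0.06, adjusted p = 0.0248 for *Morf4l1*). *Kat5* stood at 70.3, 70.5 and 77.6 CPM in T and 69.9, 72.8 and 78.1 CPM in UC in the class where its level is highest. Its log2 fold change of -0.05 had an SE of 0.07.

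In R, 0 of 8 genes passed in spermatogonia-like cells (0.484% of 6411 genes) and 0 of 9 in spermatocyte-like cells (0.00758% of 13186 genes). *Ing3* in spermatogonia-like cells was at 13.5, 21.96 and 24.7 CPM in R and 36.6, 40.03 and 44.2 CPM in UC, on 25 and 30 UMIs. Its log2 fold change of -0.90 (SE 0.40) was the largest of the set in any comparison and did not pass (adjusted p = 0.37). In spermatocyte-like cells of R the log2 fold changes ran from -0.14 (*Actl6a*, SE 0.08) to 0.32 (*Chd5*, SE 0.28). The *Chd5* value was 0.63 without UC 1, 0.11 without UC 2 and 0.14 without R 2, and did not pass in these fits. *Chd5* passed there with the coarser clustering (0.70, SE 0.18, adjusted p = 0.0313).

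**Figure D5:**
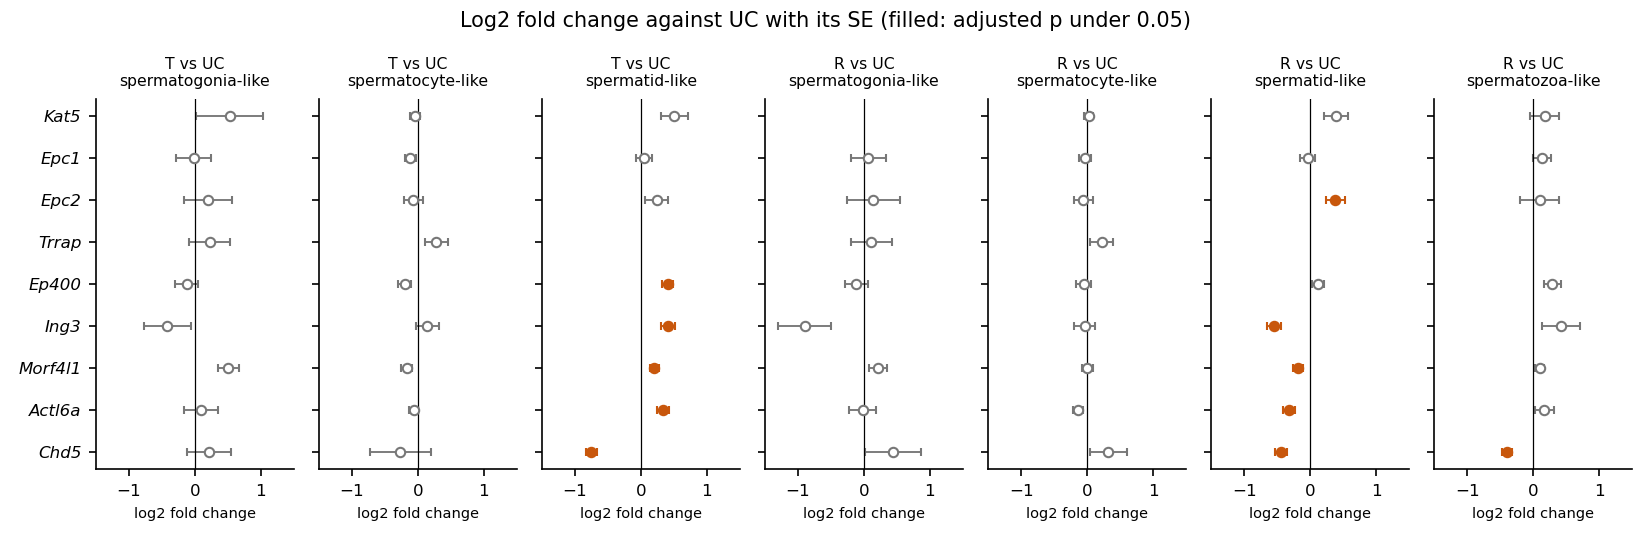
Log2 fold change against UC with SE for each gene in the 7 comparisons, filled where the adjusted p is under 0.05, with untested genes left blank. Filled points are found in spermatid-like cells of T and R and, for Chd5, in spermatozoa-like cells of R.

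Whether the change at the end of dosing differed from that 6 wk later was tested against the vehicle group of each time point (T against VC-T 2 and 3, R against VC-R) in spermatid-like cells. The difference passed for *Ing3*, *Actl6a*, *Morf4l1* and *Ep400*, which is 4 of 9 tested genes beside 35.5% of 15580 genes. With VC-T 1 among the vehicle libraries, *Ing3* passed (adjusted p = 0.0449), and *Actl6a* (0.0993), *Morf4l1* (0.18) and *Ep400* (0.307) did not, beside 6.59% of 15535 genes. Without the 4 clusters of few UMIs, *Ing3* passed (0.74, SE 0.18, adjusted p = 0.00905), and *Actl6a* (0.44, adjusted p = 0.0554), *Morf4l1* (0.24, adjusted p = 0.22) and *Ep400* (0.37, adjusted p = 0.277) did not, beside 21.4% of 14888 genes. *Ing3* was 0.64 higher on the log2 scale in T and 0.55 lower in R than its vehicle group, a difference of 1.19 (SE 0.21, adjusted p = 0.000479). *Actl6a* differed by 0.80 (SE 0.18, adjusted p = 0.00335), with 0.52 in T and -0.28 in R. *Chd5* had log2 fold changes against vehicle of -0.58 in T and -0.22 in R, where R (251 to 305 CPM) overlapped VC-R (214 to 383 CPM), and the difference of -0.36 (SE 0.25, adjusted p = 0.275) did not pass. In spermatogonia-like and spermatocyte-like cells none of the genes passed this test, beside 1.74% and 1.48% of genes.

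The other genes of the pathway were read from lists, of which the NuA4 subunits and BET readers are named here after their values were seen. Of 11 further NuA4 subunits in spermatid-like cells of T, 4 were higher and 2 lower at adjusted p under 0.05, beside 21.8% and 26.2% of all genes tested, with a median log2 fold change of 0.20 against 0.05 over all genes. For the lists that follow, 48.1% of all genes passed in spermatid-like cells of T and 41.2% in those of R. Without the 4 clusters of few UMIs, 17.5% of all genes passed in R. Of 11 further subunits 0 were then higher and 1 lower, and of 15 other acetyltransferases 2 were higher and 1 lower. Of 9 deacetylases 0 were higher and 2 lower, and of 12 NuRD genes 1 was higher and 0 lower. Of 14 genes of histone removal and replacement, 2 were higher and 2 lower. In spermatid-like cells of T, *Yeats4* rose from 85.9 to 122.5 CPM (log2 fold change 0.51, SE 0.09), *Brd8* from 12.1 to 21.7 CPM (0.81, SE 0.16), *Morf4l2*, the paralog of *Morf4l1*, from 10.9 to 18.2 CPM (0.71, SE 0.16) and *Mbtd1* from 23.1 to 31.2 CPM (0.41, SE 0.13). *Mrgbp* fell from 19.2 to 13.3 CPM (-0.46, SE 0.18), and *Actb*, which encodes cytoplasmic actin, fell from 751 ± 90.5 to 308 ± 16.4 CPM (-1.29, SE 0.08, adjusted p = 2.35e-08). In R, 2 of the 11 were higher and 5 lower, beside 21.3% and 19.9% of all genes, with a median of -0.27 against 0.05. *Brd8* was again higher than in UC (21.1 and 12.1 CPM, log2 fold change 0.78, SE 0.15), and *Mrgbp* was higher (0.45, SE 0.13), while *Vps72*, *Dmap1*, *Ruvbl2*, *Meaf6* and *Actb* were lower, from -0.27 to -0.65 on the log2 scale. Without the 4 clusters of few UMIs, neither *Brd8* nor *Mrgbp* passed as higher, and 1 of the 11 passed as lower. In spermatozoa-like cells of R, 2 of 11 were lower, beside 2.72% of all genes. In edgeR 0 of the tested subunits passed in spermatogonia-like and spermatocyte-like cells, beside 5.54% and 1.59% of all genes in T and 0.484% and 0.00758% in R.

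Of the BET readers, *Brd2* was higher in spermatid-like cells of T (115 CPM in UC and 149.98 in T, log2 fold change 0.38, SE 0.08) and 0 of 4 passed in R. *Brdt*, the germ cell BET protein, was at 117 CPM in T and 103 in UC (0.18, SE 0.08, adjusted p = 0.0764). In R it was at 88.0 CPM, against 103 in UC (-0.22, SE 0.09, adjusted p = 0.0609).

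Of 15 other acetyltransferases tested in spermatid-like cells of T, 6 were higher and 2 lower, near the 48.1% of all genes, and the median log2 fold change was 0.37 against 0.05. *Cdyl*, a chromodomain protein of spermatids, fell from 363 ± 35.8 to 160 ± 23.2 CPM (log2 fold change -1.18, SE 0.10, adjusted p = 2.02e-07), and *Gtf3c4* (1.14, SE 0.30) and *Ncoa3* (1.05, SE 0.32) rose from low levels. In R 7 of 16 were higher and 1 lower (median 0.31, with 41.2% of all genes past the test), and *Gtf3c4* (1.06, SE 0.26), *Kat6a* (1.01, SE 0.32) and *Kat6b* (1.03, SE 0.38) had the changes past both thresholds. Without the 4 clusters of few UMIs *Kat6a* was at 0.79 (SE 0.38, adjusted p = 0.167). Of 10 deacetylases, 2 were higher and 3 lower in T, also near 48.1%, with *Hdac11* at 31.9 CPM in T and 67.3 CPM in UC (-1.07, SE 0.11) and *Hdac8* at 3.03 and 0.931 CPM (1.82, SE 0.42). In R 3 were higher and 2 lower, beside 41.2%, with *Hdac8* at 1.48 (SE 0.44). Without the 4 clusters of few UMIs, 0 of 9 tested deacetylases passed as higher. Of 12 NuRD genes, the complex to which CHD5-type helicases belong, 5 were higher and 2 lower in T, beside 48.1% of all genes, among them *Mbd2* at 29.3 ± 1.41 CPM in T and 61.5 ± 8.12 in UC (-1.08, SE 0.12). In R 1 of 13 was higher and 2 were lower, beside 41.2%.

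The largest changes among these lists were in genes of histone removal and replacement. In spermatid-like cells of T, 8 of 14 were lower and 4 higher, beside 26.2% and 21.8% of all genes, with a median log2 fold change of -0.50 against 0.05 over all genes. The transition protein genes fell, *Tnp2* from 8743 ± 1616 CPM to 335 ± 170 (-4.71, SE 0.26, adjusted p = 8.85e-09) and *Tnp1* from 5557 ± 815 to 542 ± 218 (-3.36, SE 0.20), as did the protamine gene *Prm2*, from 10528 ± 1601 to 218 ± 152 (-5.58, SE 0.36). The summed spermatozoa markers in these spermatid-like cells were at 2891 to 3102 CPM in T and 4945 to 5828 CPM in UC. UC libraries held 1704 to 2189 spermatozoa-like cells and T libraries almost none, and free RNA was not removed. The part of stage and free RNA in these falls was not tested, and no value with matched cells is given. In R 6 of 14 were lower and 2 higher, beside 19.9% and 21.3%, with *Ino80*, the ATPase of another remodeller, at 6.39 CPM in R and 2.39 in UC (1.51, SE 0.30). *Prm2*, *Prm1* and *Tnp2* were also lower in spermatogonia-like cells of T (-5.74, -5.17 and -4.04), where 7 of 16 genes of this list were lower and 0 higher, beside 5.54% of all genes. The summed spermatozoa markers in those spermatogonia-like cells were at 266 to 606 CPM in T and 1111 to 2083 in UC, and their part in the result was not tested. In spermatocyte-like cells of T, 2 of 16 were lower, beside 1.59% of all genes, *Prm2* (-6.82, SE 1.13, adjusted p = 0.0469) and *Prm1* (-6.29, SE 1.03, adjusted p = 0.0467). The spermatozoa markers summed to 125 to 274 CPM in those cells of T and 533 to 2655 CPM in UC, and 1 cluster led by *Cks2*, *Lypd10* and *Pou5f2* held 18.6% of the spermatocyte-like cells of UC and 0.0166% of those of T, with their part not tested. In spermatogonia-like cells of R, 2 of 16 were higher and 0 lower, beside 0.484% of all genes, *Prm3* (1.11, SE 0.21, adjusted p = 0.0326) and *Hils1* (1.44, SE 0.31, adjusted p = 0.0384), and the spermatozoa markers summed to 1786 to 2807 CPM there.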

How the data were processed

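Raw UMI counts per gene and cell were deposited by the authors as 1 matrix for each of the 15 libraries, made with 10x 3′ chemistry and Cell Ranger on mm10. The study's methods give Cell Ranger 3.0.0, whereas the matrix headers name cellranger 7.0.0. Whether intronic reads were counted is not given in the sources used here. The removal of free RNA and doublets that the study describes is not in these counts.

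Barcodes were kept as cells from 500 genes and 1000 UMIs upward where mitochondrial UMIs stayed below 30%, and the 5.4% with the highest doublet scores were removed. Free RNA was not removed. Clusters (scanpy 1.11.5, 2000 variable genes, 30 principal components, 20 neighbours, Leiden resolution 1.2) were named from marker genes, and the genes described and the gene lists were kept out of the variable genes. Classes rebuilt in this way can differ from those of the study. Counts were summed per library and class with at least 10 cells and tested with edgeR 4.0.16 (filterByExpr, TMM, quasi-likelihood, R 4.3.3), and p-values were adjusted by Benjamini-Hochberg over all genes tested. DESeq2 1.42.0 was an alternative, beside other scalings, filters, controls, cells and clusterings. Calls use an adjusted p under 0.05, alone or with an absolute log2 fold change over 1. On counts simulated for spermatid-like cells of T and UC (13137 genes), 87% of changes of 1 and 100% of changes of 2 on the log2 scale were recovered. Only 100 genes were changed at each size there, whereas 48.1% of genes passed in the data. Changes under 1, such as those called in the set, were not simulated, so these rates do not apply to them.

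The rule for named genes took in all 9 genes in each of the 7 comparisons, and outside spermatid-like cells some that did not pass are given in the text as a range only. From each list, up to 3 genes with the smallest adjusted p past both thresholds are named, and other names were chosen after their values were seen. The 2 most similar profiles were ranked by Pearson r of log2(CPM + 1) over 20 pseudotime bins. The genes and lists were chosen with earlier results of these data known. VC-T 1 was left out of the control profile. A floor of 3 counts is given for values of 0. Floors cover counting error only. Promoter sequences are from RefSeq (GRCm38.p6), where *Epc1* had no entry.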

Additional observations from a re-analysis of the deposited data

Results flagged for a closer look

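Among the genes described, *Ep400*, *Ing3*, *Morf4l1* and *Actl6a* were flagged because their change against vehicle in spermatid-like cells at the end of dosing (T against VC-T 2 and VC-T 3) differed from that 6 wk later (R against VC-R) by a test of the difference itself. These 4 of 9 genes are near the 35.5% of all tested genes that also passed, so the count is not particular to this set. *Ing3* had a difference of 1.19 on the log2 scale (SE 0.21, edgeR adjusted p = 0.000479), with 51.8 to 57.3 CPM in T, 33.1 to 37.3 in VC-T 2 and VC-T 3, 26.3 to 28.4 in R and 31.8 to 44.3 in VC-R. *Actl6a* had a difference of 0.80 (SE 0.18, adjusted p = 0.00335), with 128 to 151 CPM in T against 87.3 to 110.4 in its vehicle libraries, and 80.7 to 92.1 CPM in R against 105 to 106 in VC-R. *Ep400* had a difference of 0.64 (SE 0.21, adjusted p = 0.0241), with 94.0 to 102 CPM in T against 63.9 to 73.6, and 73.8 to 80.0 CPM in R against 74.6 to 106, where the groups overlapped. *Morf4l1* had a difference of 0.62 (SE 0.18, adjusted p = 0.0136), with 2199 to 2356 CPM in T against 1595 to 2005, and 1630 to 1747 CPM in R against 1905 to 2232. With VC-T 1 among the vehicle libraries, the difference was 1.00 for *Ing3* (adjusted p = 0.0449), 0.58 for *Actl6a* (0.0993), 0.39 for *Ep400* (0.307) and 0.42 for *Morf4l1* (0.18). The test was added after the data had been seen. Spermatid-like cells of R were mostly from 4 clusters of few UMIs per cell. Without those clusters the difference was 0.74 for *Ing3* (adjusted p = 0.00905), 0.44 for *Actl6a* (0.0554), 0.37 for *Ep400* (0.277) and 0.24 for *Morf4l1* (0.22).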

How the results depend on the processing

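For the 11 values of single genes past the adjusted p threshold, 153 of 212 fits under other settings kept direction and threshold, 53 lost the threshold and 6 reversed. The reversals were in spermatid-like cells of R, *Morf4l1* at 0.24 and *Actl6a* at 0.34 with cells matched on pseudotime, *Morf4l1* at 0.098 without the 4 clusters of few UMIs, *Morf4l1* and *Actl6a* at 0.048 each against VC-R without those clusters, and *Morf4l1* at 0.036 with library totals without TMM. The last 3 of these settings were added after the data had been seen. The cause of the first 5 was not tested. Leaving out TMM moved the median log2 fold change of all genes in spermatid-like cells from 0.05 to 0.28 in T and from 0.05 to 0.27 in R, and in spermatocyte-like cells of T from -0.01 to 0.14, and *Morf4l1* in R moved by no more than that shift of all genes.

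The count of genes of the set with an adjusted p under 0.05 moved as follows, in each case with the cause not tested. In spermatid-like cells of T it was 5, beside 48.1% of all genes, and 0 against VC-T 1 to 3, 3 with cells matched on pseudotime, 2 with all groups in 1 fit, 4 in DESeq2, 6 with no filter on low counts or without cells under 2000 UMIs, 7 without TMM, and 4 to 6 leaving out 1 library. In spermatid-like cells of R it was 5, beside 41.2% of all genes, and 0 against VC-R with or without the 4 clusters of few UMIs, 2 without cells under 2000 UMIs, 2 without the 4 clusters of few UMIs (17.5% of all genes), 2 at resolution 0.8, 1 with all groups in 1 fit, 4 in DESeq2, with RLE size factors or with no filter, and 2 to 5 leaving out 1 library, with 2 without R 3 or UC 1. In spermatozoa-like cells of R it was 1, beside 7.79% of all genes, and 0 against VC-R or with cells matched. In spermatogonia-like cells of T it was 0, beside 5.54% of all genes. It was 1 with no filter on low counts (661 of 20924 genes passed), the replicate block (551 of 7345) or doublets kept (1052 of 7914). It was also 1 without cells under 2000 UMIs (606 of 4304) or without TMM (480 of 7345). Leaving out 1 library gave 0 to 1, with 1 without T 2 (669 of 7149) or UC 3 (336 of 7212). In spermatocyte-like cells of T it was 0, beside 1.59% of all genes. It was 1 with cells matched (1177 of 9683 genes passed) and 2 at resolution 0.8 (1769 of 11916). Leaving out 1 library gave 0 to 1, with 1 without UC 1 (903 of 12507). In spermatocyte-like cells of R it was 0, and 1 at resolution 0.8. Counts without a share of all genes beside them are not read against other genes.

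The labels give groups the same replicate numbers, but nothing says that a number marks a shared source, and deviations of same-numbered libraries correlated from -0.11 to 0.07 in spermatid-like cells of T, -0.06 to 0.18 in those of R and -0.50 to 0.70 over all comparisons. With the replicate block, 5, 5 and 1 genes of the set passed in spermatid-like cells of T, of R and in spermatozoa-like cells of R, 1 in spermatogonia-like cells of T, and 0 in the other 3 comparisons. Over all genes, calls at both thresholds moved by over 1.5 times in every comparison under some setting. With the vehicle group in place of UC, spermatid-like cells of T went from 2106 to 0 (VC-T 1 to 3) and those of R from 992 to 253, or to 0 also without the 4 clusters. Those of R were also at 625 with cells matched, 570 without cells under 2000 UMIs, 157 without the 4 clusters of few UMIs, 440 with all groups in 1 fit and 1741 without TMM. Spermatogonia-like cells of T had 305, against 0 (VC-T 1 to 3), 776 (VC-T 2 and 3), 132 in DESeq2, 521 with no filter, 653 with doublets kept, 24 with cells matched, 469 without cells under 2000 UMIs, 39 with all groups in 1 fit and 166 to 508 leaving out 1 library. Spermatocyte-like cells of T had 71, against 24 (VC-T 1 to 3), 534 (VC-T 2 and 3), 310 in DESeq2, 244 with no filter, 361 with the block, 301 with doublets kept, 284 with cells matched, 538 at resolution 0.8, 548 with all groups in 1 fit and 0 to 347 leaving out 1 library. Spermatogonia-like cells of R had 26, against 0 with VC-R, with cells matched or with all groups in 1 fit, 9 in DESeq2, 144 with no filter, 185 with the block, 2 with doublets kept, 1 without cells under 2000 UMIs, 45 without TMM and 0 to 240 leaving out 1 library. Spermatocyte-like cells of R had 0 in edgeR (935 genes at an unadjusted p under 0.05) and 0 in DESeq2, against 171 at resolution 0.8, 5 with cells matched, 1 with all groups in 1 fit and 0 to 5 leaving out 1 library. Spermatozoa-like cells of R had 111, against 0 with VC-R, 26 in DESeq2, 32 with cells matched, 60 with all groups in 1 fit and 72 to 131 leaving out 1 library. The 6 genes above every control in bin 11, with *Kat5* above by a margin within counting error, were 0 with VC-T 1 among the controls. *Trrap* in spermatid-like and spermatozoa-like cells and *Kat5* in spermatogonia-like cells had too few UMIs for a comparison of small changes.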

Other observations

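Outside the germ line, the highest control values of *Trrap* were in Sertoli-like cells, but other somatic classes held few cells and are not ranked against them. In macrophages of VC-R 1 and VC-R 2, with 11 and 10 cells, a count of 0 allows up to 150 and 168 CPM. In Sertoli-like cells *Trrap* stood at 0, 219 and 242 CPM in the UC libraries, where the value of 0 comes from 27 cells and allows up to 48.8 CPM, at 13.9, 171 and 225 CPM in VC-R, and at 128 and 199 CPM in VC-T 2 and VC-T 3. In T 1 and T 3 it was at 151 and 165 CPM, and in the R libraries at 49.1, 33.7 and 20.8 CPM, from 380, 460 and 2048 cells. *Trrap* was lower in R than in all of these libraries other than UC 1 and VC-R 1, which rest on 0 and 1 UMI. One Sertoli-like cluster, with a median of 1378 UMIs per cell, held 98.7% of the Sertoli-like cells of R and 57.2% of those of UC, so the cells compared differ between groups, and no test was run.

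*Chd5* in Sertoli-like cells was at 125 to 174 CPM in R and 33.6 to 97.7 CPM in UC, and *Morf4l1* at 1242 to 1590.0 CPM in R and 715 to 1449 CPM in UC. These are values without a test, and the same cluster difference applies to them. Free RNA was not removed, and the part of germ cell RNA in these levels was not tested.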
